A study of Mus musculus with 4 samples.

Results

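CD4+ T cells kept with interferon alpha (IFNa) for 8 h were compared with the same kind of cells kept with it for 2 h, 1 array against 1 array. These are 2 of the 4 arrays of the study, and both other arrays hold baseline cells that received no IFNa. All cells were splenic CD4+ T cells of male C57BL/6 mice aged 6 weeks, isolated by negative selection and stimulated for 48 h with beads carrying antibodies to CD3 and CD28. The IFNa groups then received IFNa at 100 U/ml for 2 h or 8 h. Cells cultured for those hours without IFNa were not analysed here, so effects of IFNa and of culture time cannot be told apart. The sample notes of the IFNa groups mention JAK inhibitors as with or without, while the other labels of these arrays name IFNa alone. The labels do not say whether the baseline arrays come from separate mice or cultures, so each p-value below rests only on how far these 2 arrays lay apart, which may be technical. The 2 h and 8 h arrays have no replicate, and the test gave them the spread seen at baseline.

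Type I interferon binds the receptor chains Ifnar1 and Ifnar2, and the kinases Jak1 and Tyk2 then activate the transcription factor complex ISGF3, which includes Stat2 and Irf9. ISGF3 binds the interferon-stimulated response element (ISRE), and its targets include antiviral effectors as well as Usp18, which restrains the receptor. Activated T cells also carry transcripts of antigen receptor signalling, such as the Nr4a and Egr factors, which are made quickly, decay quickly and depend on continued signalling, and growth transcripts for ribosomes, sterols and amino acid supply.

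Promoter stretches are shown for genes of 3 courses described below, because the share of promoters with an ISRE differed between the courses more than that of the other motifs searched. They are RefSeq sequences of the assembly GRCm38.p6, each reaching at most 50 bases on either side of a motif match, and the capitals mark the match. Ifit3 (chr19:34583357-34583466, plus strand), Rsad2 (chr12:26456513-26456622, minus strand), Ifit1 (chr19:34640754-34640863, plus strand) and Ifi214 (chr1:173535977-173536086, minus strand) were high at 2 h and at 8 h, and their capitals mark an ISRE, here GAAA, any 2 bases and GAAA again, on either strand. Egr2 (chr10:67537444-67537553, plus strand) and Dusp5 (chr19:53529023-53529132, plus strand) were high at 2 h only, and their capitals mark a CArG box, the site of serum response factor. Hmgcs1 (chr13:119690164-119690272, plus strand), a sterol synthesis gene, was low at 8 h only, and its capitals mark a sterol response element (SRE, TCACNCCAC). Of 15 genes of sterol synthesis and uptake with a matched promoter, Hmgcs1 alone held an SRE (6.67%). The first base of the match lies 122 bases before the gene's start in Ifit3, 120 in Rsad2, 85 in Ifit1, 79 in Ifi214, 72 in both Egr2 and Dusp5, and 137 in Hmgcs1.
Ifit3: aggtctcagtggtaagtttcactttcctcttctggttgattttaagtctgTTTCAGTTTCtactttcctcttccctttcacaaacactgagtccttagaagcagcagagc
Rsad2: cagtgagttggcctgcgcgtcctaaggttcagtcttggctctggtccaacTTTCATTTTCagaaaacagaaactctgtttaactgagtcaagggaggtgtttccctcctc
Ifit1: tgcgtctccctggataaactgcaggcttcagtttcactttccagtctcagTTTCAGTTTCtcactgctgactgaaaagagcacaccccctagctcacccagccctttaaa
Ifi214: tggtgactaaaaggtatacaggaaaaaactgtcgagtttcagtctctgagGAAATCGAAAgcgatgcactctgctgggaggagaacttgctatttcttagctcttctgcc
Egr2: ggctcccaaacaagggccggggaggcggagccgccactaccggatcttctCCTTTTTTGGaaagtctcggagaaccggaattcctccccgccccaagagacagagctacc
Dusp5: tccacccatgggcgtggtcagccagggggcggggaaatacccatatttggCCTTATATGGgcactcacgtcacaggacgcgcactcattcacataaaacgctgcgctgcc
Hmgcs1: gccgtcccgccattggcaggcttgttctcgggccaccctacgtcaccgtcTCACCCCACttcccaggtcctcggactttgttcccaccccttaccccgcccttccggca

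A promoter window of 250 bases before to 50 bases after the start was matched for 8590 of the 10699 genes tested. An ISRE lay in the window of 17 of 31 matched genes whose early rise was sustained (54.8%), of 4 of 38 whose early rise was lost (10.5%), of 9 of 246 late falls (3.66%) and of 311 of all 8590 matched genes (3.62%). A CArG box was found in 3 of the 38 lost rises (7.89%), in none of the 31 sustained rises and in 1.57% of all matched genes. The kB site (GGG, any 2 bases, then TTTCC), bound by NF-kB, was likewise found in 3 lost rises (7.89%), in no sustained rise and in 1.82% of all. The GAS element (TTCNNNGAA), bound by STAT dimers, was in 9.68% of sustained rises, 18.4% of lost rises, 9.76% of late falls and 8.23% of all. Among late falls, the SRE was in 2.03% against 1.42% of all, the E-box (CACGTG) in 15.04% against 11.99%, the hypoxia element (HRE, ACGTGC) in 11.8% against 9.60%, the CARE site (TTGCATCA) in 2.44% against 0.664%, and the CRE (TGACGTCA) in 2.85% against 3.70%. Both strands were searched, and an E-box and an HRE can overlap. These matches describe letters in a window and were not tested.

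**Figure D1:**
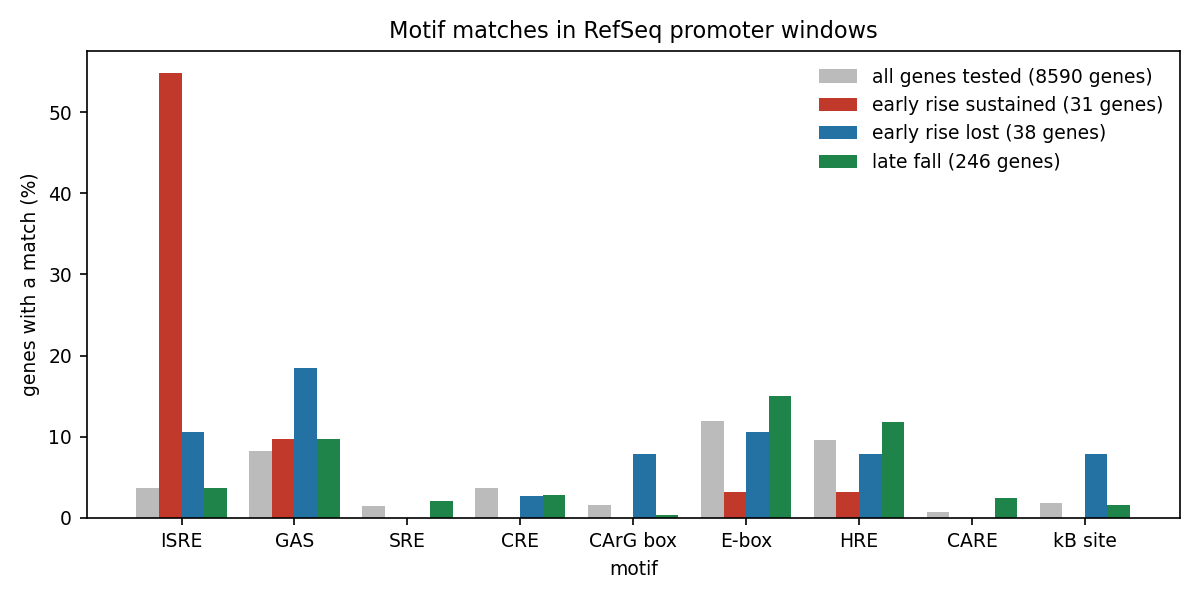
Share of genes (%, vertical axis) whose RefSeq promoter window holds each of 9 motifs, for all matched genes tested and for the sustained early rises, lost early rises and late falls. The ISRE bar of the sustained rises stands at 54.8% against 3.62% for all genes.

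The deposited intensities had upper quartiles of 669 and 730 (baseline), 769 (2 h) and 574 (8 h), so the 8 h array had the narrowest upper range. CD4 T cell markers were high on every array: the 6 tested (Cd3d, Cd3e, Cd3g, Cd4, Cd5 and Cd28) lay between 10.78 and 13.15 on the log2 scale, and none differed between 2 h and 8 h by the test. The B cell gene Cd79b lay between 9.99 and 10.26 and Cd8b1 between 9.57 and 9.87. All 4 tested B cell markers had positive 8 h minus 2 h differences (median 0.36), as had both CD8 genes (median 0.48), none called, and their part in the results was not tested. Of the 10699 genes tested, 7266 had negative differences. After quantile normalization Ms4a1 (1.09, adjusted p = 0.0014) and Cd8b1 (0.69, adjusted p = 0.035) were called higher. Of neutrophil and erythroid markers Mpo (−0.19) and Slc4a1 (0.86, adjusted p = 0.0511) were tested. Of the 13 listed markers of NK, myeloid and dendritic cells, Eomes and Lyz2 were above the filter and the others were dim on all arrays. Isg15 had no row that named it alone and is not analysed here.

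The gap between the baseline arrays was the yardstick for the gap between 2 h and 8 h, since each is 1 array minus 1 array. Baseline 2 and baseline 1 differed at least 2-fold in 41 of the genes tested, and 8 h and 2 h in 1005. Of those 1005, 925 were lower at 8 h (8.65% of genes tested) and 80 higher (0.748%), against 12 (0.112%) and 29 (0.271%) for baseline 2 minus baseline 1. Rows that name several genes were left out, and there the order was the reverse. Of 968 such rows above the array median on at least 1 array, 117 differed at least 2-fold between 8 h and 2 h. Between the baseline arrays 186 did. At least 4-fold differences numbered 39 between 8 h and 2 h and 6 between the baseline arrays. The 95th percentile of the absolute log2 difference was 1.20 for 8 h minus 2 h and 0.57 for the baseline arrays. The median signed difference was −0.25 and 0.10, and list medians below are best read beside that −0.25. Quantile normalization moved the median to 0.00 and left 765 genes beyond 2-fold, 541 lower and 224 higher, against 27 between the baseline arrays. With arrays centred on their medians the split was 1585 lower and 32 higher, against 58 between the baseline arrays.

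**Figure D2:**
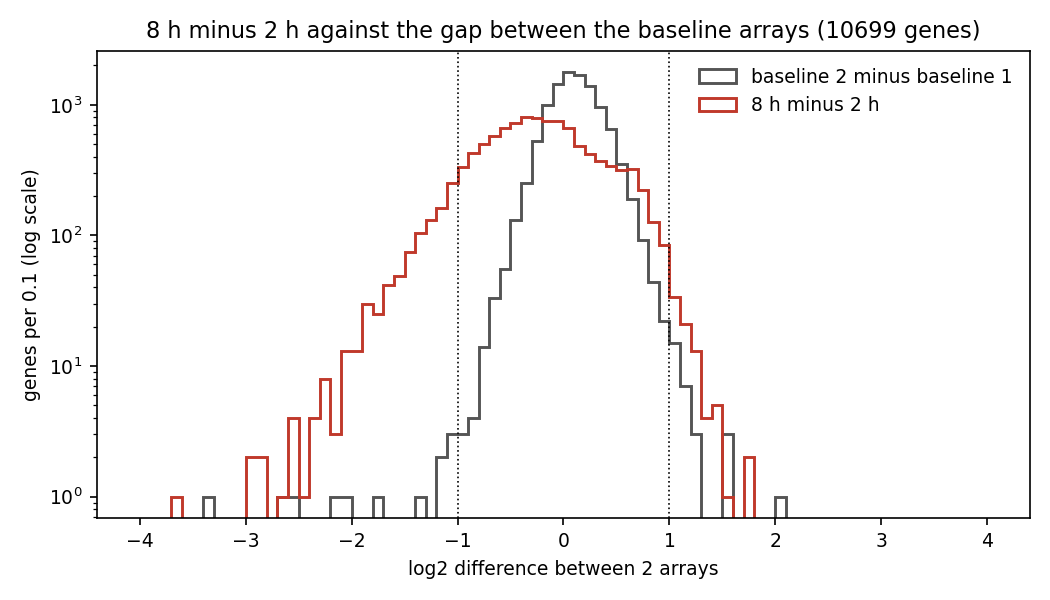
Number of genes (log scale, bins of 0.1) by log2 difference between 2 arrays, for 8 h minus 2 h and for baseline 2 minus baseline 1, over 10699 genes. Dotted lines mark 2-fold, beyond which lie 1005 genes of the first comparison and 41 of the second.

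Across genes, which are not independent replicates, 8 h minus 2 h fell on baseline 2 minus baseline 1 with a slope of −0.94 (Pearson's r −0.44), although these comparisons share no array. The 2 h array leaned towards baseline 2 (slope 0.58 of its difference from baseline) and the 8 h array towards baseline 1 (−0.36). Calls are therefore also given with this slope taken out of both IFNa arrays (removal of the baseline difference, below). After that step 460 genes were called between 8 h and 2 h, 429 lower and 31 higher, and 447 of them were among the calls on the values as deposited.

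In a limma model with a mean for each of the 3 groups, 1155 genes were lower at 8 h than at 2 h (10.8% of 10699) and 156 higher (1.46%), at a Benjamini-Hochberg adjusted p under 0.05. At 2 h, 117 genes were above baseline (1.09%) and 1 below (0.00935%), and at 8 h 70 were above (0.654%) and 358 below (3.35%). Genes were placed in courses by these 3 contrasts, which share arrays, so the counts of courses are descriptions. Of the 117 early rises, 42 were sustained (called above baseline at 8 h and not called lower than at 2 h). Partly lost were 3 (called above baseline at 8 h and called lower than at 2 h). Lost were 59 (called lower than at 2 h and not called above baseline at 8 h), and 13 were undecided. The courses rest on calls and not on levels. Thus 23 of the 42 sustained rises had lower values at 8 h than at 2 h. Likewise 15 of the 59 lost rises lay above both baseline arrays at 8 h. Among the sustained rises 14 (Rtp4, Ifit3 and Rsad2 included), and among the lost rises 13, were at or below the array median on both baseline arrays and were tested only because an IFNa array was brighter. A further 10 genes rose late and 308 fell late, meaning that they differed from both baseline and 2 h at 8 h without a call at 2 h. The only early fall, the predicted hydrolase Abhd18, had baseline levels of 9.66 and 9.71, then 8.48 (2 h) and 8.72 (8 h), so it remained low. For 785 genes the sole call was that 8 h was lower than 2 h, with a median of 0.48 above baseline at 2 h and −0.64 at 8 h.

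**Figure D3:**
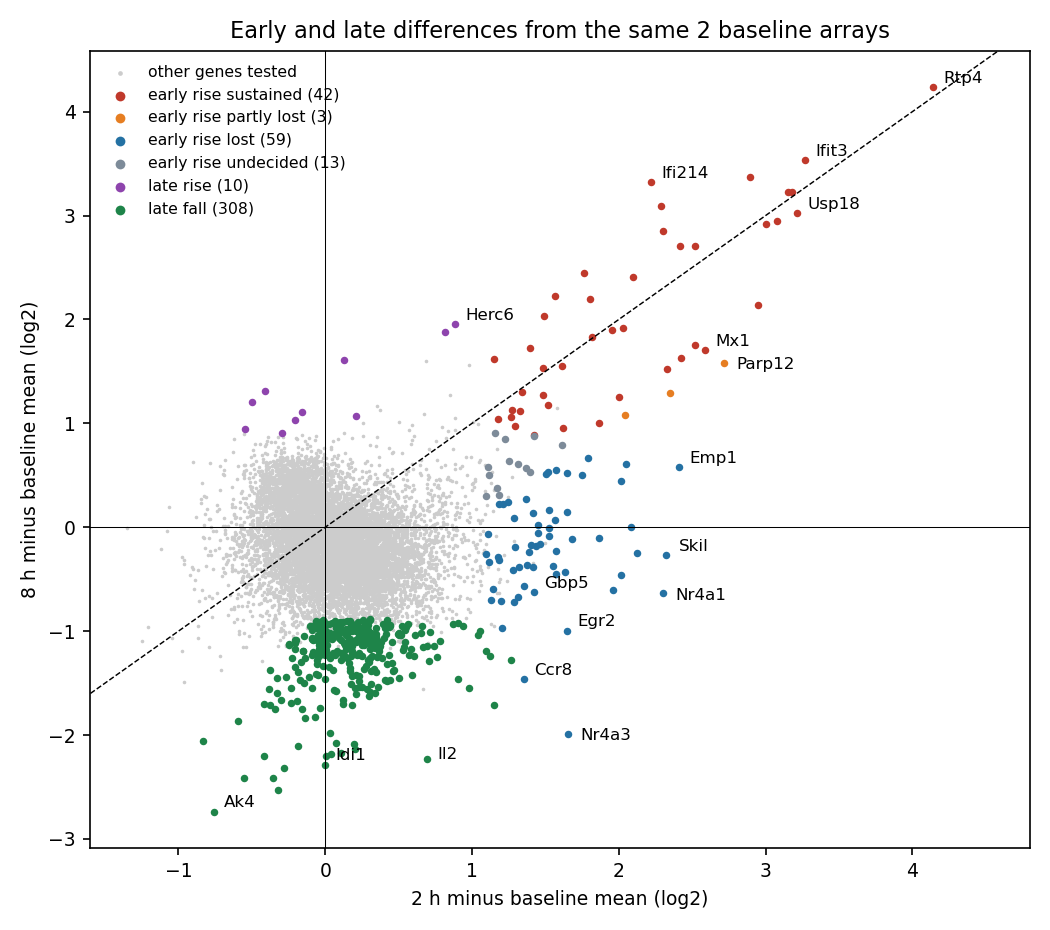
Log2 difference from the baseline mean at 2 h (horizontal) and 8 h (vertical) for each gene tested, coloured by course, with the dashed line where both are equal. Both axes subtract the same 2 baseline arrays. Sustained rises lie along the dashed line up to Rtp4, while lost rises lie near or below the zero of the vertical axis.

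The share of the 2 h rise that was left at 8 h split the early rises into groups. Over all 117 its median was 33.9% on the log2 scale (quartiles −12.4% and 84.4%), with 19 genes at 100% or more, 31 from 50% to 100%, 28 from 0% to 50% and 39 below 0%, that is under the baseline mean. The 42 early rises on the interferon lists kept a median of 91.4%, and 33 of them were sustained, 2 partly lost, 2 lost and 5 undecided. The 13 early rises on the lists of immediate early genes, Nr4a and NFAT feedback, dual-specificity phosphatases and NF-kB feedback kept a median of −24.3%, and all 13 were lost. Of the 62 early rises on none of these lists, 9 were sustained, 1 partly lost, 44 lost and 8 undecided, with a median of 9.03%. The lists were chosen with earlier results of these data known, so the contrast between them is a description. The 2 h array chose these genes and also enters the share, so a 2 h value that is high by chance lowers it. When genes at least 2-fold above one baseline array were read against the other, the median was −40.0% (332 genes chosen against baseline 1) or 27.5% (139 genes chosen against baseline 2).

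The antiviral genes with the largest early rises stood at nearly the same level at 8 h. Rtp4, an interferon-induced antiviral protein, had baseline log2 levels of 6.59 and 6.34, then 10.61 (2 h) and 10.70 (8 h). Ifit3, which with Ifit1 binds viral RNA, stood at 7.32 and 7.02, then 10.44 and 10.70. Both IFNa arrays of each gene lay far above both baseline arrays and close to each other. Their 8 h minus 2 h differences were 0.10 (SE 0.25, adjusted p = 0.809) for Rtp4 and 0.26 (SE 0.25, adjusted p = 0.478) for Ifit3, so neither changed by more than the spread between the baseline arrays. Rsad2, which makes a chain-terminating nucleotide, stood at 6.92, 6.72, 9.997 and 10.04 in the order baseline 1, baseline 2, 2 h and 8 h, which holds below wherever 4 levels are given. Ifit1 stood at 8.14, 7.97, 11.06 and 10.97, and Usp18 at 8.36, 8.64, 11.72 and 11.52. These 3 kept 101%, 97.2% and 94.0% of their 2 h rise, and the share was 102% for Rtp4 and 108% for Ifit3. The promoters printed for Ifit3, Rsad2 and Ifit1 each held an ISRE upstream of the start.

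Other sustained rises included transcription factors, sensors and effectors. Irf7, a transcription factor that extends the interferon response, stood at 7.28, 7.80, 10.69 and 10.77. The RNA helicase Dhx58 stood at 8.04, 8.24, 10.56 and 10.85, and the sensor Ddx58 (RIG-I) at 10.31, 10.29, 11.63 and 11.42. The counts of sustained members per list in this paragraph stand beside 42 sustained rises among all 10699 genes tested. Of 11 tested genes of RNA and DNA sensing, 5 were sustained, 1 was undecided (Adar) and none was called between 2 h and 8 h, with a median of −0.07. Of 7 oligoadenylate synthetases, which make the activator of RNase L, 4 were sustained. Higher values at 8 h than at 2 h were found in 6 of the 7, none called (median 0.31, and 0.54 after quantile normalization). Negative differences were found in 7266 of the 10699 genes tested. Of 17 restriction factors 6 were sustained, with a list median of −0.11 that turned to 0.09 after quantile normalization. Trim30a, a member of the TRIM ubiquitin ligase family, stood at 11.14, 11.06, 12.58 and 12.63, and 4 of 12 tested genes of that list were sustained (median 0.01).

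Some sustained rises had lower values at 8 h without passing the test. Mx1, of the Mx family of GTPases, stood at 6.18, 6.45, 8.90 and 8.02, a difference of −0.88 (SE 0.25, adjusted p = 0.0521). Mx2 stood at 5.02, 4.96, 7.94 and 7.13 (−0.81, SE 0.23, adjusted p = 0.0543) and Cxcl10, a chemokine for activated T cells, at 6.78, 6.56, 8.54 and 7.68 (−0.86, SE 0.24, adjusted p = 0.0527). All 3 had IFNa levels above both baseline arrays at both times and kept 66.0%, 72.6% and 54.1% of the rise. After quantile normalization Mx2 (−0.996, adjusted p = 0.0027) and Cxcl10 (−0.83, adjusted p = 0.011) were called lower, and Mx1 was not (−0.66, adjusted p = 0.053). Cxcl10 was also called lower after removal of the baseline difference (adjusted p = 0.0498). The sensor Ifih1 (MDA5), at 7.83, 8.05, 10.37 and 9.57, and Cmpk2, a nucleotide kinase encoded beside Rsad2, at 7.51, 7.42, 9.98 and 9.22, had differences of −0.80 (SE 0.24, adjusted p = 0.0615) and −0.76 (SE 0.23, adjusted p = 0.0632).

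**Figure D4:**
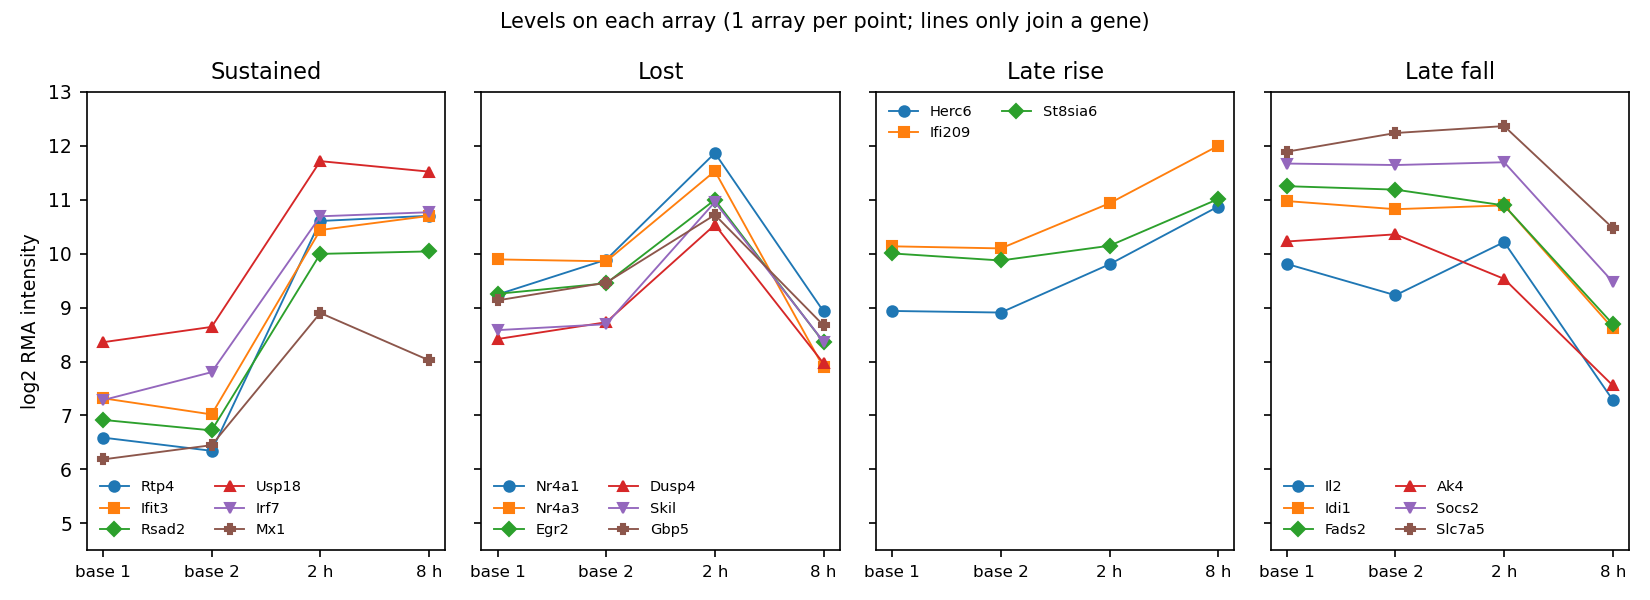
Log2 intensity (vertical axis) of named genes on baseline 1, baseline 2, the 2 h array and the 8 h array, in 4 panels by course. Each point is 1 array and lines only join the points of a gene. Rtp4 stands at 10.61 and 10.70 at 2 h and 8 h, while Nr4a3 stands at 11.53 and 7.89.

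In the Ifi200 family, which binds nucleic acids, some members were higher at 8 h than at 2 h. Of 6 tested, 5 had higher values at 8 h and 2 passed the test (1.46% of all genes were called higher), with a median of 0.86. Of the 10699 genes tested, 7266 had lower values at 8 h. Ifi214 stood at 7.97, 7.84, 10.12 and 11.22, so that 8 h exceeded 2 h by 1.10 (SE 0.24, adjusted p = 0.0281). Ifi209 stood at 10.14, 10.10, 10.94 and 12.001, a difference of 1.07 (SE 0.23, adjusted p = 0.0291), and was not called at 2 h (0.82, adjusted p = 0.145). In both genes the 2 h array lay above both baseline arrays and the 8 h array above the 2 h array. After removal of the baseline difference Ifi209 kept its call and Ifi214 missed it (adjusted p = 0.056). Ifi213 (7.84, 7.58, 9.99 and 10.80) and Ifi208 (7.11, 7.24, 10.07 and 10.54) were sustained, with differences of 0.81 (SE 0.25, adjusted p = 0.0633) and 0.47 (SE 0.24, adjusted p = 0.183). After quantile normalization 5 of the 6 were called higher, as were 992 of the 10699 genes tested. The member that lay level was Aim2, the DNA sensor of the inflammasome, with 9.40 at 2 h and 9.36 at 8 h.

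Herc6, the mouse ligase that attaches ISG15 to proteins, was a late rise. It stood at 8.94, 8.91, 9.80 and 10.88, a difference of 1.07 (SE 0.23, adjusted p = 0.0285), which held after removal of the baseline difference (adjusted p = 0.0468). Its 2 h level lay between baseline and 8 h without a call (0.88, adjusted p = 0.11). The other tested genes of the ISG15 system were not called between the times. Among them Trim25, a ligase that acts on Ddx58, was sustained (9.88, 9.92, 11.42 and 11.08), as was Usp18. St8sia6, a sialyltransferase, also rose late, from 10.01 and 9.87 through 10.15 to 11.01 (0.87, SE 0.24, adjusted p = 0.0492), and its call was lost after the removal (adjusted p = 0.0979).

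Stat2, a subunit of ISGF3, stood at 9.12, 9.50, 10.73 and 10.19 and was undecided, with 61.7% of its rise left and a difference of −0.54 (SE 0.27, adjusted p = 0.173). Irf9 stood at 10.16, 10.29, 11.26 and 11.22 and was called against baseline at 8 h (0.99, adjusted p = 0.0388) but not at 2 h (1.04, adjusted p = 0.0613), at nearly equal levels. Ifnar1 stood at 10.23, 10.51, 11.27 and 10.60 (−0.66, SE 0.25, adjusted p = 0.1), and Ifnar2 at 11.04, 10.98, 11.05 and 11.11. None of the 6 tested genes of this list was called between 2 h and 8 h. Irf1, a short-lived factor, stood at 10.78, 10.99, 11.11 and 10.35 (−0.76, SE 0.24, adjusted p = 0.0695), but its second, dimmer row on the array differed by 0.09.

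The GBP and IRG families of GTPases, which defend cells against intracellular microbes, were the interferon list with early rises and no call above baseline at 8 h. Of 8 tested, 3 were lower at 8 h than at 2 h, beside 10.8% of all genes, with a median of −0.81 (−0.49 after quantile normalization). Negative differences were found in 7 of the 8, and in 7266 of the 10699 genes tested. Gbp5 stood at 9.13, 9.46, 10.72 and 8.67, below both baseline arrays at 8 h, a difference of −2.05 (SE 0.26, adjusted p = 0.00833). Iigp1 stood at 9.12, 9.05, 10.60 and 9.60 (−0.996, SE 0.23, adjusted p = 0.034), above both baseline arrays but with no call against them (0.51, adjusted p = 0.171). After removal of the baseline difference Gbp5 and Iigp1 kept their calls and Gbp7 (−1.25, SE 0.29, adjusted p = 0.0333) lost its own (adjusted p = 0.14). After quantile normalization Iigp1 was no longer called (−0.61, adjusted p = 0.061). Gbp9 stood level, at 10.50 and 10.54.

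The 3 partly lost rises were Parp12, an ADP-ribosyltransferase that restricts viral RNA, Slfn5 of the Schlafen family and the cyclin-Y-like gene Ccnyl1. Slfn5 and Ccnyl1 were below the array median on both baseline arrays and were tested only because an IFNa array was brighter. Parp12 stood at 7.55, 7.57, 10.27 and 9.14 (−1.13, SE 0.23, adjusted p = 0.0246), Slfn5 at 7.03, 7.23, 9.48 and 8.42 (−1.06, SE 0.24, adjusted p = 0.0329) and Ccnyl1 at 7.36, 7.41, 9.42 and 8.47 (−0.96, SE 0.23, adjusted p = 0.0371). Each lay at an 8 h level between the baseline arrays and 2 h, with 58.3%, 55.0% and 53.1% of the rise left. Slfn8 of the Schlafen family stood at 8.68, 8.66, 10.49 and 10.50 and was sustained. After removal of the baseline difference Slfn5 (adjusted p = 0.0782) and Ccnyl1 (adjusted p = 0.0629) missed the call and Parp12 kept it, and Ccnyl1 also missed it after quantile normalization (−0.59, adjusted p = 0.069).

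The 59 lost rises had a median of 1.45 above baseline at 2 h and −0.19 at 8 h, and 36 of them lay below both baseline arrays at 8 h while 15 lay above both. Nr4a3 and Nr4a1, orphan nuclear receptors induced by antigen receptor signalling, had the largest differences between 8 h and 2 h among them. Nr4a3 stood at 9.89, 9.86, 11.53 and 7.89. Its 8 h intensity was 12.5-fold below 2 h (log2 difference −3.64, SE 0.23, adjusted p = 0.00161), and it was called above baseline at 2 h and below it at 8 h. Nr4a1 stood at 9.24, 9.89, 11.87 and 8.93 (−2.94, SE 0.32, adjusted p = 0.0079) and the related Nr4a2 at 7.93, 7.86, 9.34 and 7.83 (−1.51, SE 0.23, adjusted p = 0.013), near the median of lost rises (−1.62). All 3 kept their calls after removal of the baseline difference. The other 4 genes of that list, Tox, Tox2, Rcan1 and Nfatc1, were not called, with differences from −0.54 for Tox to 0.29 for Nfatc1.

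Of 21 immediate early genes, 10 were lower at 8 h than at 2 h (10.8% of all genes were) and none higher, with a median of −0.85. Egr2, a zinc finger factor that limits T cell responses, stood at 9.26, 9.45, 11.0002 and 8.36, highest at 2 h and lowest at 8 h (−2.64, SE 0.24, adjusted p = 0.0074). Gadd45b, a stress gene, stood at 8.53, 8.95, 10.87 and 8.50 (−2.37, SE 0.27, adjusted p = 0.0079). Its 8 h level was back beside baseline. Atf3 (8.61, 9.03, 10.08 and 7.54; −2.54, SE 0.27, adjusted p = 0.0079) and Jun (8.28, 8.68, 8.79 and 7.10; −1.69, SE 0.27, adjusted p = 0.0136) were late falls, because neither was called at 2 h. Zfp36, which destabilises cytokine transcripts, stood at 9.27 and 9.31 at 2 h and 8 h, and Btg2 at 10.69 and 11.32, so the list did not move as 1 block, and Btg2 was called higher after quantile normalization (0.88, adjusted p = 0.0077). The list stood 0.24 higher in baseline 2 than in baseline 1, and 7 of the 10 calls held after removal of the baseline difference.

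Of 8 dual-specificity phosphatases, which switch off MAP kinases, 3 were lower at 8 h, beside 10.8% of all genes, and 5 were not called. The list median was −0.74, and −0.32 after quantile normalization. Dusp4 stood at 8.42, 8.73, 10.54 and 7.97 (−2.57, SE 0.26, adjusted p = 0.00786) and Dusp5 at 9.78, 10.20, 11.56 and 9.54 (−2.02, SE 0.27, adjusted p = 0.00963). Both lay below both baseline arrays at 8 h. Dusp6 (8.05, 8.92, 9.46 and 7.70) was called lower than 2 h (−1.77, SE 0.38, adjusted p = 0.0281) but its baseline arrays differed by 0.87, and the call was lost after removal of that difference (adjusted p = 0.158). Of 11 NF-kB feedback genes 6 were called lower, beside 10.8% of all genes, with a median of −0.91, and 2 of the 6 held after the removal. All 11 had negative differences, as had 7266 of the 10699 genes tested. Nfkbid, a nuclear IkB protein, stood at 8.83, 9.34, 10.72 and 8.66 (−2.06, SE 0.29, adjusted p = 0.0104), and the subunits Relb (7.63, 8.20, 9.48 and 7.99) and Nfkb2 (9.38, 9.75, 10.85 and 9.37) were lost rises too, which missed the call after the removal (differences of −1.4997 for Relb and −1.49 for Nfkb2).

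Of 18 tested genes of T cell activation and costimulation 6 were called lower, beside 10.8% of all genes, and none higher. All 18 had negative differences, as had 7266 of the 10699 genes tested, with a median of −0.61 and −0.29 after quantile normalization. Cd69, an early activation marker, stood at 10.86, 10.93, 11.83 and 9.95 (−1.89, SE 0.23, adjusted p = 0.0079), with no call at 2 h. The PD-1 ligands Pdcd1lg2 (7.22, 7.36, 8.43 and 6.69; −1.74, adjusted p = 0.00963) and Cd274 (9.10, 9.45, 10.46 and 8.75; −1.70, adjusted p = 0.013) and the CD30 ligand Tnfsf8 (9.34, 9.64, 10.77 and 9.07; −1.70, adjusted p = 0.0117) were highest at 2 h and lowest at 8 h, and of these Cd274 had no call at 2 h (adjusted p = 0.0567). Fasl, the ligand of the death receptor Fas, stood at 6.74, 6.79, 8.22 and 6.79 (−1.43, SE 0.23, adjusted p = 0.0142), back at its baseline. Ccr8, a chemokine receptor, stood at 10.18, 10.26, 11.57 and 8.75 and was called above baseline at 2 h and below it at 8 h (−2.82, SE 0.23, adjusted p = 0.00687). Ctla4 (−0.28), Cd28 (−0.01) and Lag3 (−0.10) were not called.

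Several of the largest lost rises lay on no list. Skil, a corepressor of SMAD proteins, stood at 8.58, 8.69, 10.96 and 8.37 (−2.59, SE 0.23, adjusted p = 0.0074). Spsb1, a substrate adaptor of a ubiquitin ligase, stood at 8.20, 8.70, 10.46 and 7.99 (−2.47, SE 0.29, adjusted p = 0.0079) and Lrig1, a brake on growth factor receptors, at 8.63, 8.85, 10.82 and 8.74 (−2.08, SE 0.24, adjusted p = 0.0079). At 8 h Lrig1 lay between its baseline arrays, and Skil and Spsb1 lay just below theirs. Emp1, a membrane protein, had the largest 2 h rise of the lost genes (2.41) and stood at 7.19, 7.22, 9.61 and 7.78 (−1.83, SE 0.23, adjusted p = 0.00862).

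The 308 late falls had a median of 0.17 at 2 h and −1.14 at 8 h against baseline. Of these, 179 had a 2 h level above both baseline arrays and 57 below both. Il2, the T cell growth cytokine, stood at 9.81, 9.23, 10.22 and 7.29. Its 8 h intensity was 7.62-fold below 2 h (−2.93, SE 0.31, adjusted p = 0.00786). Of 10 tested genes of IL-2 and its STAT5 targets 6 were called lower, beside 10.8% of all genes, all 6 as late falls. All 10 had negative differences, as had 7266 of the 10699 genes tested, and the list median was −1.32. Socs2, a suppressor of cytokine signalling, stood at 11.67, 11.64, 11.70 and 9.48 (−2.22, SE 0.23, adjusted p = 0.00786) and Cish, of the same family, at 10.79, 11.41, 11.17 and 9.02 (−2.15, SE 0.31, adjusted p = 0.0114). In each the 3 earlier arrays lay together and the 8 h array apart. The receptor chains Il2ra (13.49 and 13.05 at 2 h and 8 h) and Il2rb (12.99 and 12.83) were not called. After removal of the baseline difference 5 of the 6 calls held.

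Effector cytokines moved in the same direction. Tnf stood at 10.23, 10.59, 10.86 and 9.11 (−1.76, SE 0.26, adjusted p = 0.0117) and Il4, the signature cytokine of type 2 helper cells, at 9.17, 9.17, 9.22 and 7.80 (−1.43, SE 0.23, adjusted p = 0.0142). With Il2, 3 of 6 tested cytokines were called lower, beside 10.8% of all genes, and all 3 held after removal of the baseline difference. Ifng (8.18 and 7.58 at 2 h and 8 h, −0.59, adjusted p = 0.157) and Gzmb (−0.65, adjusted p = 0.0883) were not called. Il12rb2, a chain of the interleukin 12 receptor, stood at 10.71, 10.65, 11.39 and 9.40 (−1.99, SE 0.23, adjusted p = 0.0079). The lineage factors Tbx21 (10.57 and 10.51), Gata3 (11.56 and 11.46) and Foxp3 (9.36 and 9.61) were not called between 2 h and 8 h, and Foxp3 was called higher after quantile normalization (0.64, adjusted p = 0.0489). The transcription factors Irf4 (10.69, 11.15, 11.10 and 9.41; −1.68, adjusted p = 0.0151) and Irf8 (11.74, 11.53, 11.40 and 9.95; −1.46, adjusted p = 0.0152) were late falls on the list of interferon regulatory factors.

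Sterol synthesis genes fell between 2 h and 8 h. Of 19 tested, 11 were called lower, beside 10.8% of all genes, and none higher, and the median was −1.32 (−1.07 after quantile normalization). All 19 had negative differences, as had 7266 of the 10699 genes tested. Idi1, which interconverts the isoprenoid building blocks, stood at 10.98, 10.83, 10.90 and 8.62 (−2.28, SE 0.24, adjusted p = 0.00786). Cyp51, which demethylates lanosterol, stood at 10.32, 10.23, 10.48 and 8.14 (−2.34, SE 0.23, adjusted p = 0.00786). Hmgcs1, the first committed synthase before the statin target, stood at 10.72, 11.12, 10.74 and 8.82 (−1.92, SE 0.27, adjusted p = 0.0105). On each the 2 h array lay with the baseline arrays and the 8 h array lay alone. Lss had the widest baseline gap of the 4 largest falls (9.50, 10.36, 9.93 and 7.72; −2.21, SE 0.38, adjusted p = 0.016), and its call was lost after removal of the baseline difference (adjusted p = 0.0701). The list stood 0.33 higher in baseline 2, and 7 of its 11 calls held after the removal, with a median of −1.01. In fatty acid synthesis 4 of 12 were lower, beside 10.8% of all genes, and 3 of the 4 held. Among them were the desaturases Fads2 (11.25, 11.19, 10.90 and 8.70; −2.20, SE 0.23, adjusted p = 0.00789) and Scd1 (11.25, 11.03, 10.58 and 8.72; −1.86, SE 0.24, adjusted p = 0.00921).

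Of 28 tested genes of ribosome biogenesis 21 were lower at 8 h than at 2 h, beside 10.8% of all genes. The list median was −1.17 (−0.86 after quantile normalization). All 28 had negative differences, as had 7266 of the 10699 genes tested. Nop58, a core protein of methylation guide particles, stood at 9.38, 9.89, 10.54 and 8.17 (−2.37, SE 0.29, adjusted p = 0.0079), and Gnl3 (nucleostemin) at 10.32, 10.43, 10.66 and 8.82 (−1.84, SE 0.24, adjusted p = 0.00894). Both were highest at 2 h. The list lay 0.31 above baseline at 2 h and −0.83 from it at 8 h, and 10 members were late falls. After removal of the baseline difference 9 of the 21 calls held, where 429 of the 10699 genes tested were called lower. The abundant nucleolar protein Npm1 stood at 12.56 and 12.45 and was not called.

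Amino acid supply and growth regulators followed. Of 25 tested genes of the ATF4 programme, which answers amino acid shortage, 13 were lower, beside 10.8% of all genes, and none higher (median −0.99). Of the 13, 6 held after removal of the baseline difference. Slc7a5, the large neutral amino acid transporter, stood at 11.89, 12.24, 12.37 and 10.48 (−1.89, SE 0.26, adjusted p = 0.00973) and Asns, asparagine synthetase, at 11.36, 11.90, 11.93 and 10.003 (−1.93, SE 0.30, adjusted p = 0.013). The stress factor Ddit3 (8.62 and 9.25; 0.63, adjusted p = 0.1) and its partner Trib3 (8.10 and 8.10) were not called, and Ddit3 was called higher after quantile normalization (0.98, adjusted p = 0.00325). Odc1, the first enzyme of polyamine synthesis, stood at 10.21, 10.25, 10.76 and 9.05 (−1.71, SE 0.23, adjusted p = 0.00963). Myc, a driver of T cell growth, stood at 11.88, 12.05, 11.94 and 10.77 (−1.17, SE 0.24, adjusted p = 0.0246), and its adjusted p was 0.053 after the removal.

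Glycolysis was the list with the largest median difference between the baseline arrays. Of 16 tested genes 5 were lower (median −0.69), beside 10.8% of all genes. The list stood 0.48 higher in baseline 2 than in baseline 1, and none of the 5 calls held after removal. Hk2, hexokinase 2, stood at 8.47, 8.96, 8.41 and 7.05 (−1.36, SE 0.29, adjusted p = 0.0263, and 0.0968 after the removal). The glucose transporter Slc2a1 stood at 11.32, 12.07, 10.83 and 10.74, so its lower level was present at 2 h without a call. Of 15 hypoxia-inducible genes 6 were lower (median −0.55), beside 10.8% of all genes. Of the 6, 4 held after the removal, on a list whose baseline arrays differed by 0.04. Egln3, an oxygen-sensing prolyl hydroxylase, stood at 11.35, 11.17, 10.98 and 8.94 (−2.04, SE 0.24, adjusted p = 0.0079), and the mitophagy receptor Bnip3 at 11.23, 10.76, 10.16 and 8.94 (−1.22, SE 0.28, adjusted p = 0.0331). Ak4, a mitochondrial adenylate kinase, stood at 10.23, 10.36, 9.53 and 7.56 (−1.98, SE 0.24, adjusted p = 0.0079), but its second row on the array differed by −0.28.

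**Figure D5:**
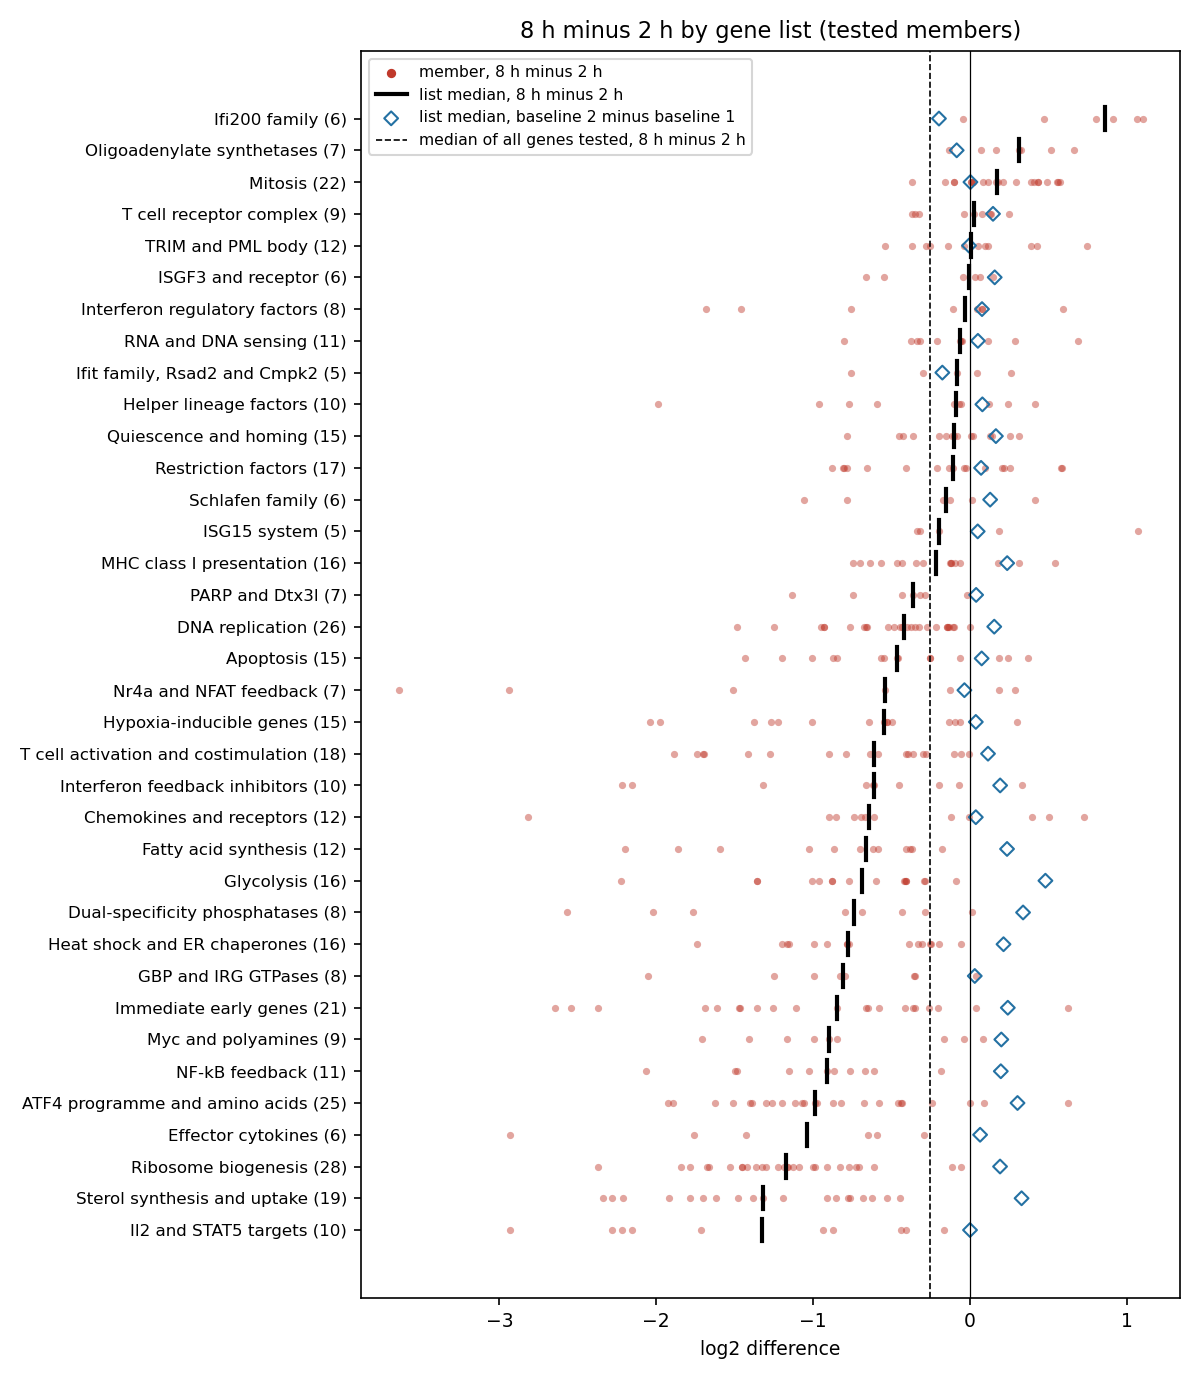
Log2 difference 8 h minus 2 h (horizontal axis) for the tested members of each gene list with at least 5 of them, with the list median as a bar and the list median of baseline 2 minus baseline 1 as a diamond. Ribosome biogenesis (−1.17) and sterol synthesis (−1.32) lie left of the median of all genes (−0.25), and the Ifi200 family (0.86) lies right of it.

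Of 16 chaperones 6 were lower (median −0.78), beside 10.8% of all genes, and 2 held after removal of the baseline difference. The largest fall was that of Hsph1 (8.89, 9.39, 10.005 and 8.26; −1.74, SE 0.29, adjusted p = 0.0149). Hspa8, an abundant chaperone, stood at 13.97 and 13.92. Of 26 DNA replication genes 3 were lower, a share near the 10.8% of all genes (median −0.42, and −0.10 after quantile normalization), and none of the 3 held. Mitosis genes had no call among 22, with a median of 0.17. After quantile normalization 5 of the 22 were called higher (median 0.38), as were 992 of the 10699 genes tested. With arrays centred the median was −0.01. Kif20a, a mitotic kinesin, stood at 10.94, 11.03, 10.60 and 11.17 (0.57, SE 0.23, adjusted p = 0.119), lowest at 2 h, and was among those called after quantile normalization (0.84, adjusted p = 0.0096). The 9 tested genes of the T cell receptor complex and the 15 of quiescence and homing held no call either, with medians of 0.03 and −0.10. In apoptosis 4 of 15 were lower, beside 10.8% of all genes, and 2 of the 4 held after removal of the baseline difference. Among the 4 was Bcl2, a survival factor, at 12.25, 12.27, 12.01 and 11.14 (−0.87, SE 0.23, adjusted p = 0.0464, and 0.073 after the removal). Xaf1, an antagonist of apoptosis inhibitors, was a sustained rise at 8.22, 8.22, 10.74 and 10.93.

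Genes higher at 8 h than at 2 h were mostly dim ones. Of the 156, 95 (60.9%) lay in the 25% of tested genes with the lowest mean level, and 39 (25%) were olfactory or vomeronasal receptors, microRNA genes or predicted genes, against 2.15% of all genes tested and 0.26% of the 1155 lower genes. These dimmest 25% of tested genes had a median 8 h minus 2 h difference of 0.16, against −0.37, −0.42 and −0.23 in the next groups of equal size by rising level, so level moved with the direction. The count of higher genes also moved with the scaling, to 992 after quantile normalization and 72 with arrays centred on their medians. Of the 156, 145 had no call against baseline, and all 145 lay below both baseline arrays at 2 h and above both at 8 h. Among these 145, 46 were at or below the array median on both baseline arrays. Those 46 were tested only because an IFNa array was brighter. Among the largest rises, Cmah, a sialic acid hydroxylase, stood at 11.80, 11.65, 10.94 and 12.35 (1.41, SE 0.24, adjusted p = 0.0157), and Ceacam1, an adhesion receptor, at 8.16, 7.68, 7.37 and 8.82 (1.45, SE 0.29, adjusted p = 0.0221). Tns1, which links integrins to actin, stood at 9.82, 9.28, 8.65 and 10.17 (1.53, SE 0.30, adjusted p = 0.0215), but its other rows on the array gave −0.03 to 0.54. In each of the 3 the 2 h array was the lowest of the 4. Cmah kept its call after removal of the baseline difference, and Ceacam1 (adjusted p = 0.0812) and Tns1 (adjusted p = 0.0827) lost theirs.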

How the data were processed

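RNA of 4 samples was measured on Affymetrix Mouse Gene 1.0 ST arrays. The deposited intensities are linear and were made by the authors with Affymetrix Power Tools and RMA, per the submitters' processing notes. Versions, and which arrays were normalized together, are not given in the sources used here. Of 24922 rows, 21425 named 1 gene, 1399 several and 2098 none, and the latter 2 kinds were left out. The row with the highest mean stood for each of 19752 genes. Deposited intensities were converted to log2, and the 10699 genes above the 50th percentile of all rows on at least 1 array were tested, so a gene could pass through the array where it is high. R 4.3.3 and limma 3.58.1 fitted a mean for each of 3 groups (two-sided, Benjamini-Hochberg adjusted p under 0.05). Only the 2 baseline arrays gave a spread, moderated across genes, and the number of arrays limits the precision. Columns of other series numbered 0. The fit was tested on simulated data with independent noise of equal spread on every array. That noise lacks the slope on the baseline difference seen here, so the simulation cannot judge calls under it.

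Named genes were the 10 largest rises and falls between 8 h and 2 h, up to 8 per course, up to 4 called members per list, and a set of listed members. Other genes named in the text, such as Abhd18, Bnip3, Ddx58, Slfn8, Zfp36 and those related to TGF-beta signalling, were picked after their values were seen. The members and lists were chosen with earlier results of these data known. The baseline difference was removed by taking from each IFNa array its slope on baseline 2 minus baseline 1. The other alternatives were quantile normalization, median centring, other filters, the mean of a gene's rows, an intensity trend, 2-fold thresholds and leaving out a baseline array.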

Additional observations from a re-analysis of the deposited data

Results flagged for a closer look

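In 4 genes limma called the level above baseline at 2 h and below it at 8 h, and the difference between those effects is the 8 h minus 2 h contrast itself. It was −3.64 for Nr4a3, −2.82 for Ccr8 and −2.64 for Egr2, whose levels are given above. Taf4b, a TFIID subunit, had baseline levels of 8.77 and 8.93, then 10.06 (2 h) and 7.88 (8 h), a difference of −2.18 (SE 0.24, adjusted p = 0.0079).

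Of the 2098 rows with no gene symbol listed, which entered no comparison, 1058 lay above the array median on at least 1 array. Of these 1058, 91 were at least 2-fold apart between 8 h and 2 h, against 82 between the baseline arrays. The dimmer rows were not counted.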

How the results depend on the processing

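No setting turned the direction of a named gene called between 8 h and 2 h, but small differences that were not called changed sign with the scaling: after quantile normalization the list medians of the ISGF3 genes (0.18), interferon regulatory factors (0.27), sensing genes (0.12), the Ifit family (0.17) and the Schlafen family (0.25) were positive. The 156 genes higher at 8 h than at 2 h became 992 after quantile normalization, 72 with centred arrays, 20 with no filter on dim genes, 62 with the filter at the 60th percentile, 31 with the baseline difference removed and 80 by a 2-fold threshold. The 1155 lower genes became 2315 with centred arrays, 395 with no filter and 429 with the baseline difference removed. The 42 sustained rises became 88 after quantile normalization. The 59 lost rises became 184 (quantile), 202 (centred), 36 (no filter) and 102 (2-fold). The 10 late rises became 423 (quantile), 2 (no filter), 6 (60th percentile), 20 (intensity trend) and 5 (baseline difference removed). The 308 late falls became 650, 617, 83, 178 and 177 under quantile normalization, centring, no filter, the 60th percentile and the removal. Causes were not tested. Of the 59 lost rises, 54 were lost after quantile normalization too, 3 were partly lost and 2 sustained. Of the 42 sustained rises 40 were shared. The median share of the rise kept, 33.9% over the early rises, also moved with the scaling. It was 13.3% after quantile normalization, −5.52% with centred arrays and 45.2% with the baseline difference removed. The share was −40.0% when chosen against baseline 1 and read against baseline 2. Leaving out 1 baseline array, with a 2-fold threshold, gave 67 to 174 lost rises, 38 to 50 sustained rises, 7 to 18 late rises and 174 to 376 late falls. The test without a baseline array has no residual degrees of freedom and was not run. No paired analysis was possible because the groups compared share fewer than 2 replicate numbers.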

Other observations

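Among the lost rises were 5 genes related to TGF-beta signalling, named after their values were seen and without a test of the group. Besides Skil, they were the receptor antagonist Smad7 (8.75 and 8.94 on the baseline arrays, then 10.64 and 9.51 on the 2 h and 8 h arrays), Pmepa1 (10.74, 10.60, 12.08 and 10.28), the corepressor Tgif1 (9.03, 9.13, 10.60 and 9.07) and Ldlrad4 (8.27, 8.45, 10.11 and 8.86). Smad7 and Ldlrad4 ended above both baseline arrays.

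Rows that name several genes numbered 1399, and their median log2 level was 8.87 and 7.88 (baseline), 7.94 (2 h) and 8.26 (8 h). The medians of 1027 olfactory receptor genes were 5.57, 5.09, 5.04 and 5.43 in the same order. In both, baseline 1 was highest.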
